A study of Rattus norvegicus with 2 samples.

Results

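Genes of transforming growth factor beta (TGF-beta) signalling were read in the hearts of salt-sensitive rats on a high-salt and a low-salt diet: the ligand genes Tgfb1, Tgfb2 and Tgfb3, and Tsc22d1, Pmepa1 and Fstl1, which respond to TGF-beta. They were taken as every probe set whose annotated symbol was 1 of these 6 genes, of 4736 symbols in all, which gave 8 of the 8740 non-control probe sets of the array. The genes were chosen on their high-salt over low-salt ratios in these same 2 arrays, so their values are a description and carry no test. The high-salt array held heart RNA of male rats of the Dahl salt-sensitive strain, which is prone to hypertension when salt is eaten, on a high-salt diet and with chronic heart failure per the labels. The low-salt array held heart RNA of male rats of the same strain on a low-salt diet. Heart failure is named for the high-salt array only, so diet and heart failure cannot be told apart here. The age was 17 weeks in both groups. There was 1 array per diet. The sources used here do not say whether an RNA came from 1 animal or several, or from which chamber. The study asked which transcripts differ in the failing heart.

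TGF-beta ligands are secreted in a latent form, held in the extracellular matrix by latency proteins, and released by proteases and integrins. The active ligand joins type I and type II receptor kinases, which phosphorylate Smad2 and Smad3, and these enter the nucleus with Smad4 to bind DNA. In the heart the pathway is known for turning fibroblasts into matrix-producing myofibroblasts, and for the fibrosis that accompanies pressure overload.

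Tsc22d1, Pmepa1 and Fstl1 read higher in the high-salt heart, and the ligands could not be ordered. A wider list of TGF-beta responsive genes, given below, lay mostly within 2-fold. Tsc22d1 was 3.82-fold higher, Pmepa1 2.91-fold higher and Fstl1 3.68-fold higher in its brighter probe set. Tgfb1, Tgfb2 and Tgfb3 gave intensities under the noise of both arrays. The values are deposited intensities in arbitrary units, and the noise floor of 126.4 marks the 95th percentile in size of the intensities below 0. A lower floor of 10.9, the 40th percentile of all intensities, was used for ratios, and smaller values were raised to it. With 1 array per diet no difference has a spread between samples, and precision is limited by the number of arrays. As a partial error that leaves out animals, the log2 ratio varied among the probe sets of a gene with an SD of 0.47 (736 genes above the lower floor on both arrays) or 0.22 (231 genes at or above the noise floor on both).

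The ligands come first in the pathway. Tgfb1, the isoform best known from fibrosis, read 60.8 on high salt and 17.7 on low salt. Tgfb2, an isoform needed for heart valve formation in the mouse, read 75.4 on high salt and 8.9 on low salt. Both were brighter on the high-salt array, but the gaps of 43.1 and 66.5 units were smaller than the noise floor. At the lower floor they came to 3.44-fold for Tgfb1 and at least 6.92-fold for Tgfb2. With a floor at the 60th percentile, 41.2, both low-salt readings were raised to the floor, and the log2 ratios were at least 0.56 and 0.87, bounds that do not settle whether either gene was past 2-fold.

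Tgfb3 had a pair of probe sets made from 1 sequence record, which are not independent. U03491_at read 46.4 on high salt and 56.4 on low salt. U03491_g_at read 83.3 on high salt and 89.6 on low salt. Both were slightly dimmer on the high-salt array, by log2 ratios of -0.28 and -0.11, within the SD of 0.47 among probe sets of a gene. No ligand probe set reached the noise floor on either array, so the level and direction of all 3 ligand transcripts were not resolved at this signal.

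**Figure D1:**
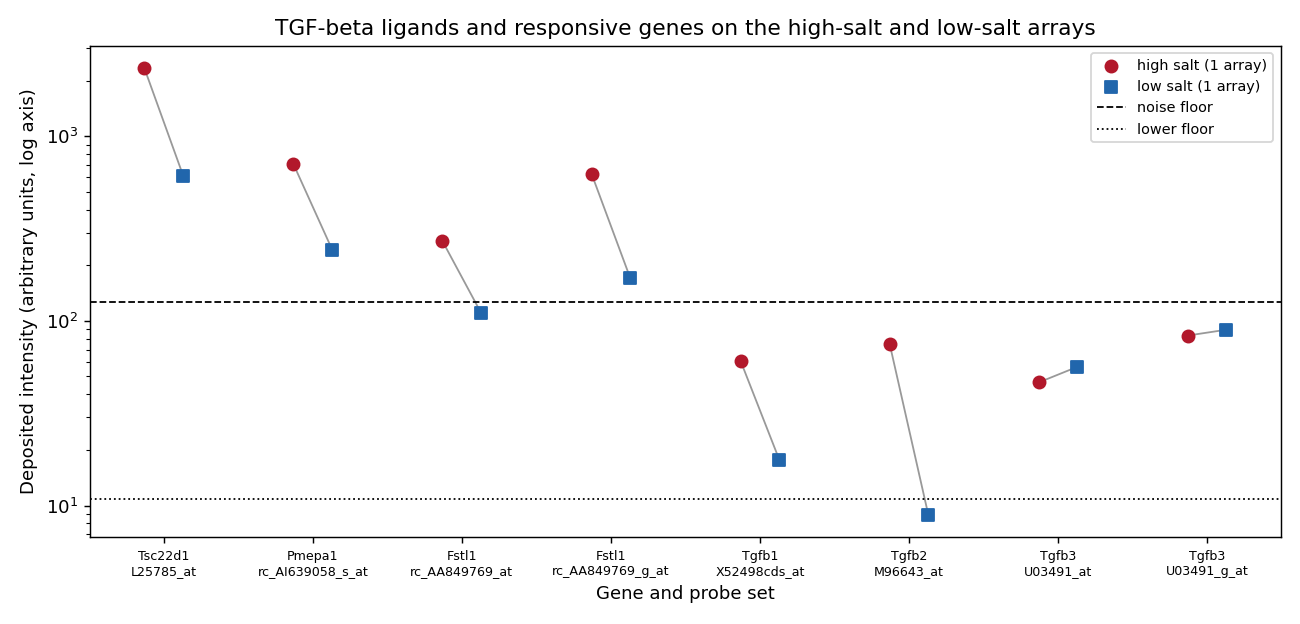
Intensity (arbitrary units, log axis) of the 8 probe sets on the high-salt array (red circles, left) and the low-salt array (blue squares, right), 1 array each, with the noise floor of 126.4 (dashed) and the lower floor of 10.9 (dotted). Tsc22d1, Pmepa1 and Fstl1 lie above the noise floor on the high-salt array and are dimmer on the low-salt array, whereas all 4 ligand probe sets lie under the noise floor.

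Tsc22d1 encodes a leucine zipper protein, first isolated as a transcript that TGF-beta induces in mouse osteoblastic cells. Its probe set, L25785_at, read 2336.8 on high salt and 612.2 on low salt. Both readings stood well above the noise floor. The log2 ratio was 1.93, which was rank 7 of the 1561 probe sets at or above the noise floor on both arrays, counted from the highest. Both readings exceeded every floor tried, so the floors could not change this ratio. Under the other scalings it lay between 1.90 and 1.94.

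Pmepa1 encodes a membrane protein that binds Smad2 and Smad3 and restrains TGF-beta signalling, and TGF-beta itself induces it. The probe set rc_AI639058_s_at read 707.0 on high salt and 243.2 on low salt. Both readings again exceeded the noise floor. The log2 ratio was 1.54, at rank 13 by the same count. Its suffix marks a probe set that may also match related transcripts.

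Fstl1 encodes a secreted follistatin-like glycoprotein, also first isolated as a TGF-beta-induced transcript in mouse osteoblastic cells, and known as a factor released by the stressed heart. Its brighter probe set, rc_AA849769_g_at, read 627.6 on high salt and 170.6 on low salt, a log2 ratio of 1.88. The other, rc_AA849769_at, read 270.5 on high salt and 110.1 on low salt, where it lay under the noise floor. Its log2 ratio was 1.30, and it was higher by at least 2.14-fold once the noise floor is used. Both probe sets come from 1 sequence record, so they are repeat readings and not independent evidence. They ran in the same direction, and their log2 ratios differed by more than the SD among probe sets.

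Counted together at the lower floor, 6 of the 8 probe sets were higher by 2-fold or more on the high-salt array, 0 were lower by as much and 2 were neither. Among all 5707 probe sets measured at that floor, 7.27% were higher and 7.62% lower by that rule. At the noise floor 4 of the 8 probe sets could be measured, those of Tsc22d1, Pmepa1 and Fstl1, and all 4 were higher by 2-fold or more; of all 1955 probe sets measured there 3.53% were higher and 1.69% lower. The median log2 ratio of the 8 was 1.66 (quartiles 0.95 and 1.89), beside -0.08 over all probe sets. Since this same contrast chose the genes, the counts describe them and support nothing further. In RNA of whole heart tissue, more RNA per cell and more cells of a type cannot be told apart.

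**Figure D2:**
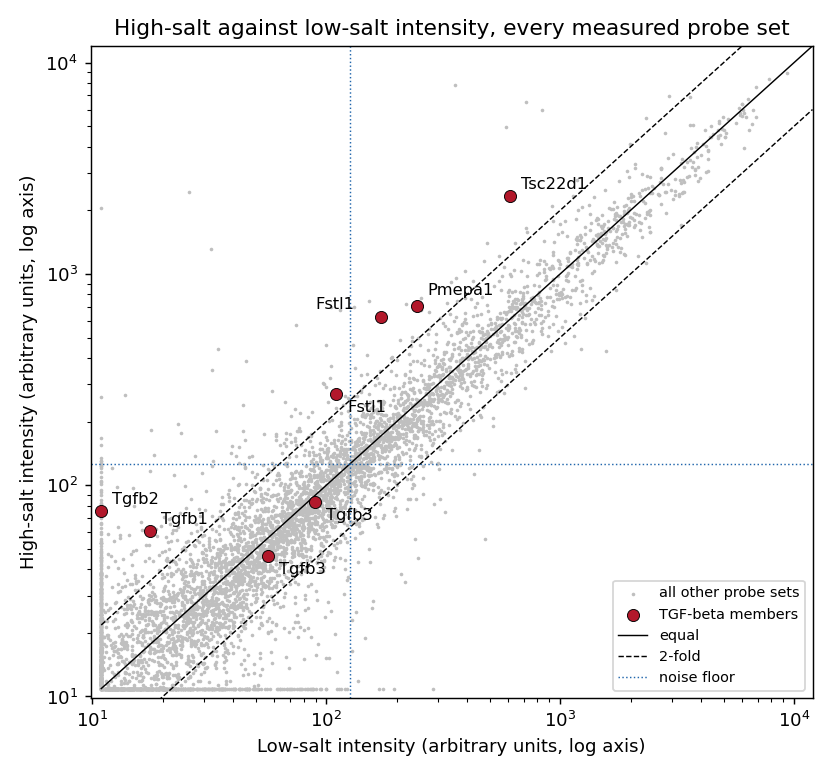
Intensity on the high-salt array (vertical) against the low-salt array (horizontal), in arbitrary units on log axes, for every probe set measured at the lower floor (grey) and the 8 TGF-beta probe sets (red), with values under 10.9 drawn at 10.9. Tsc22d1, Pmepa1 and the brighter Fstl1 probe set lie beyond the dashed 2-fold line and above the dotted noise floor of 126.4 on both arrays, and the ligand probe sets lie in the dim corner.

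A start region of each of the 3 higher genes is shown because Smad complexes bind DNA, to give the Smad-type sequences that stand there. The sequences are those of RefSeq (build GRCr8), 250 bases before to 50 bases after each annotated start, on the strand of the gene; all 6 genes matched, with 7 start regions, as Tsc22d1 has 2. Which Tsc22d1 start gave the RNA was not resolved here. Only its downstream region is printed, which held more of the marked sequences than the upstream region. Capitals mark CAGAC and its reverse complement GTCTG, the core of the Smad binding element, and GGCGCC, a GC-rich sequence that Smads can also bind. The downstream Tsc22d1 start region lies at chr15:58256751-58257050 on the plus strand, that of Pmepa1 at chr3:182478600-182478899 on the minus strand, and that of Fstl1 at chr11:76454004-76454303 on the minus strand.
Tsc22d1, downstream start: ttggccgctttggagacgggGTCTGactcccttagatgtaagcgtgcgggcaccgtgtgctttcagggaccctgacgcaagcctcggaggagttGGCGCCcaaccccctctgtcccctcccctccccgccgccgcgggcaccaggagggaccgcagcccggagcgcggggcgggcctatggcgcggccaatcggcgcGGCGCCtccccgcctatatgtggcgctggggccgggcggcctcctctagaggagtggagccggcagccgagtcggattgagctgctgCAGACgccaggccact
Pmepa1: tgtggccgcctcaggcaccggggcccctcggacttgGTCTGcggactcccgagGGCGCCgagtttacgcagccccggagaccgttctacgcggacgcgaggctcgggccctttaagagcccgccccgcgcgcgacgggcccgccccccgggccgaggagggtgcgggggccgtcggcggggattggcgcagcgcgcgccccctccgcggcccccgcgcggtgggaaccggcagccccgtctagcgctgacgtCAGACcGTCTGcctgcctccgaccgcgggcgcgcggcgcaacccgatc
Fstl1: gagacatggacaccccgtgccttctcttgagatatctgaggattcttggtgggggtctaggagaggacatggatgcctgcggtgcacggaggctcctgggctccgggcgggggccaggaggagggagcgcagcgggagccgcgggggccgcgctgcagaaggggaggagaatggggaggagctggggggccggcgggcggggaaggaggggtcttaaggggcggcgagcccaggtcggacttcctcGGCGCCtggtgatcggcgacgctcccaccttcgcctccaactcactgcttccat

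CAGAC or its reverse complement occurred 3 times in the Pmepa1 region, 2 times in the downstream Tsc22d1 region and 0 times in that of Fstl1 and in the upstream Tsc22d1 region. In Pmepa1 a CAGAC begins at base 3 after the start and a GTCTG at base 9, separated by a single base. The Tgfb1, Tgfb2 and Tgfb3 regions held none. Among all 33469 rat start regions read in the same way, 50.1% held CAGAC on 1 strand or the other. The share was 42.7% of the 5362 regions with a G and C content of at least 65%, so its presence is common.

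GGCGCC, which equals its own reverse complement, occurred in the regions of Tsc22d1 (1 match upstream, 2 matches downstream), Pmepa1 (1 match) and Fstl1 (1 match), and in none of the 3 ligand regions. It occurred in 11.0% of all start regions, and in 38.6% of the 5362 regions with a G and C content of at least 65%. The Tsc22d1, Pmepa1 and Fstl1 regions had a G and C content of 68.7% to 79.0%, and the ligand regions 47.7% to 59.0%. The palindromic Smad box GTCTAGAC (0.197% of all regions) and the AP-1 site TGACTCA or TGAGTCA (4.63%) were in none of the 7 regions. The motifs do not overlap in these sequences, and a match is a description of the letters and not a bound site.

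The receptors, Smads and proteins of ligand latency and activation lay mostly within 2-fold. Of 44 listed genes 23 had a probe set with their symbol alone, and 20 could be measured at the lower floor. There, 1 was higher and 2 were lower by 2-fold or more, and 17 were neither, in the brightest probe set of each gene. Among all 3451 genes measured in this way, 7.30% were higher and 7.27% lower by the same rule. These genes had a median log2 ratio of 0.24, with quartiles of -0.05 and 0.59, beside -0.09 for all genes. At the noise floor 7 were measured, with 1 higher and 0 lower, beside 3.54% higher and 1.89% lower over all 1216 genes.

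Igf2r, the mannose 6-phosphate receptor that can bind latent TGF-beta, read 321.8 on high salt and 103.3 on low salt. Taken from the noise floor it was higher by at least 2.55-fold, in a probe set whose suffix also allows matches to related transcripts. Itgb1, the integrin beta-1 subunit, read 876.1 on high salt and 521.0 on low salt, a log2 ratio of 0.75. These were the highest ratios among list members that reached the noise floor.

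Furin, a protease that cleaves the TGF-beta precursor, read 178.1 on high salt and 141.0 on low salt. Mmp2, a gelatinase able to release TGF-beta, read 188.7 on high salt and 163.1 on low salt. Fkbp1a, which holds the type I receptor inactive, read 451.6 on high salt and 510.2 on low salt. All 3 lay within 2-fold, and the 4 Fkbp1a probe sets did not share a direction. Dab2, an adaptor of TGF-beta signalling, read 126.9 on high salt and 89.9 on low salt, at the edge of the noise floor.

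Smad2, a receptor-activated Smad, read 59.9 on high salt and 141.7 on low salt, 2.37-fold lower at the lower floor, but bounded at 1.12-fold by the noise floor. Its other probe sets, both under the noise floor, were also dimmer on the high-salt array. The co-receptor Tgfbr3 was dim and its 2 probe sets opposed each other, with 11.3 on high salt and 51.0 on low salt for M77809_at, and 30.8 on high salt and 9.2 on low salt for M80784_s_at. Smad7, the inhibitory Smad that TGF-beta induces, read -263.3 on high salt and -287.9 on low salt, values that carry no level. Smad1, Smad3, Smad4, Smad9 and the type I receptor Tgfbr1 reached the noise floor on neither array.

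Other ligands, receptors and antagonists of the TGF-beta superfamily were mostly dim. Of 46 listed genes 27 had a probe set, 16 were measured at the lower floor, 1 was higher and 1 lower by 2-fold or more, near the 7.30% higher and 7.27% lower of all 3451 genes. Their median log2 ratio was 0.08, beside -0.09 for all genes. Gdf10, a growth and differentiation factor, read 63.5 on high salt and 23.1 on low salt, and the activin receptor Acvr2b read 12.8 on high salt and 29.0 on low salt. Both lay under the noise floor, and the second Acvr2b probe set ran the other way.

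The 3 that reached the noise floor were Inha, Inhbb and Nbl1, none of them past 2-fold. Inha, the inhibin alpha subunit, read 219.9 on high salt and 115.7 on low salt. Inhbb, the activin beta-B subunit, read 154.5 on high salt and 186.7 on low salt. Nbl1, a secreted antagonist of bone morphogenetic proteins, read 128.1 on high salt and 110.9 on low salt. Among the dim rest, Bmp4 read 21.6 on high salt and -12.3 on low salt, and the receptor Bmpr1a 57.9 on high salt and 30.0 on low salt.

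Further genes that TGF-beta is known to regulate were higher more often than lower. Of 56 listed genes 44 had a probe set, and 38 were measured at the lower floor. Of these, 11 were higher and 0 lower by 2-fold or more, 27 were neither, and 29 had a log2 ratio above 0; over all 3451 genes 7.30% were higher and 7.27% lower. The median log2 ratio was 0.40 (quartiles 0.04 and 1.23), beside -0.09 for all genes. At the noise floor 21 were measured, of which 2 were higher and 0 lower by that rule, where 3.54% of all 1216 genes were higher and 1.89% lower. Their median was 0.40 beside -0.04 for all genes. The list was drawn up with earlier results of these arrays known and is not independent of them.

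The 2 that passed 2-fold at the noise floor were Bgn and S100a4. Bgn, the matrix proteoglycan biglycan, read 695.2 on high salt and 131.6 on low salt in its brighter probe set, 5.28-fold higher. Its other probe set ran the opposite way, at 0.0 on high salt and 120.2 on low salt. S100a4, a calcium-binding protein of fibroblasts and leukocytes, read 461.8 on high salt and 99.8 on low salt, higher by at least 3.65-fold.

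Id3 and Id1 encode inhibitors of helix-loop-helix factors that answer mainly to bone morphogenetic proteins and also to TGF-beta. Id3 read 164.2 on high salt and 45.1 on low salt, and Id1 466.6 on high salt and 346.5 on low salt. Id3 was higher by at least 1.30-fold from the noise floor and Id1 by 1.35-fold. The other Id1 probe set, under the noise floor, ran the opposite way at 76.9 on high salt and 86.4 on low salt. Col5a2, a type V collagen chain, read 175.4 on high salt and 70.1 on low salt, and Postn, the matricellular protein periostin, 167.3 on high salt and 5.0 on low salt. Bounds against the noise floor were 1.39-fold and 1.32-fold for these, so their distance from the low-salt heart was not resolved beyond that.

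Fn1, which encodes fibronectin, read 230.0 on high salt and 73.2 on low salt in its brightest probe set, 3.14-fold higher at the lower floor and by at least 1.82-fold from the noise floor, while its other probe sets lay under the noise floor and did not share a direction. Acta2, the smooth muscle actin of myofibroblasts, read 378.5 on high salt and 314.6 on low salt. The suffix of that probe set, X06801cds_f_at, also allows matches to related transcripts. The protease inhibitor Timp1 read 258.0 on high salt and 209.1 on low salt. Myl9, a smooth muscle myosin light chain, read 214.2 on high salt and 141.6 on low salt. In these brightest probe sets all 3 lay within 2-fold, but each gene had another that did not at the lower floor. These read 13.8 on high salt and 31.0 on low salt for Acta2, 75.8 on high salt and 1.9 on low salt for Timp1, and 141.9 on high salt and 64.5 on low salt for Myl9. Sparc, a collagen-binding matrix protein, read 4805.4 on high salt and 4721.8 on low salt, and its 4 probe sets were all within 2-fold. Lum, the small proteoglycan lumican, ran the other way at 115.9 on high salt and 172.1 on low salt, and Tnc, the matricellular protein tenascin-C, read 125.4 on high salt and 169.6 on low salt. In their brightest probe sets, Col3a1 (545.4 on high salt and 599.5 on low salt) and Dcn (1364.9 and 1443.6) were slightly dimmer on high salt. Col1a1 (1169.7 and 823.3) and Col1a2 (292.8 and 193.8) were brighter but within 2-fold. Spp1 read 177.6 on high salt and 23.9 on low salt, higher by at least 1.40-fold from the noise floor. The early target genes Junb (48.8 on high salt and 20.5 on low salt) and Klf10 (6.0 on high salt and 20.3 on low salt) were dim, as were Eln (81.4 on high salt and -1.7 on low salt), which encodes elastin, and the cell cycle inhibitor Cdkn2b (35.1 on high salt and 15.6 on low salt).

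**Figure D3:**
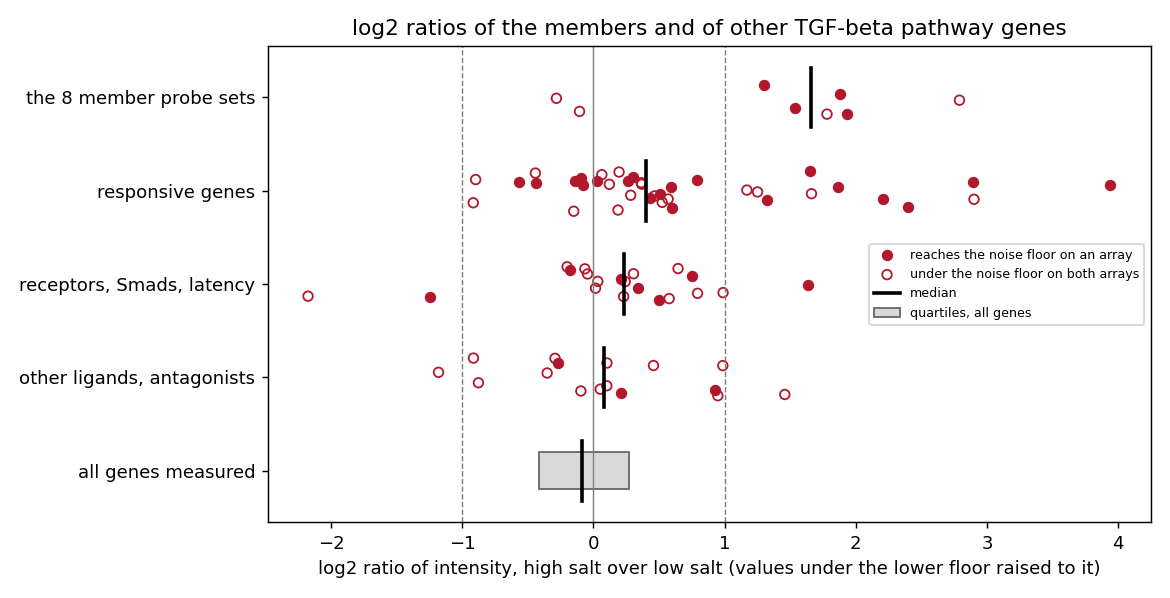
The log2 ratio of intensity, high salt over low salt, for the 8 probe sets and, in 1 probe set per gene, for 3 lists of other TGF-beta pathway genes, with filled circles for those that reach the noise floor of 126.4 on an array, black bars for medians and a grey box for the quartiles of all 3451 genes. The medians are 1.66 for the 8 probe sets, 0.40 for responsive genes, 0.24 for receptors, Smads and latency proteins, 0.08 for other ligands and antagonists, and -0.09 for all genes.

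Markers of the cells in the tissue were read beside these values, 1 probe set per gene, with readings below 0 taken as 0 in sums; the counts stand beside 7.30% of all genes higher and 7.27% lower by 2-fold or more. Of 10 cardiomyocyte genes measured 9 reached the noise floor, and none passed 2-fold in its brightest probe set. Their summed intensities were 50013 on high salt and 50846 on low salt, so both arrays carried heart muscle RNA. Other probe sets did pass 2-fold, upward for Myh7 (X15939_i_at, 4125.1 on high salt and 1988.0 on low salt). For Atp2a2 it was downward and under the noise floor (J04024_at, 27.7 on high salt and 61.3 on low salt). Of 11 fibroblast markers measured 2 were higher by 2-fold or more and 0 lower, with sums of 5257 on high salt and 4097 on low salt. The markers were split in direction, as 6 had a log2 ratio above 0 and 5 below 0. Tcf21 was below 0 on both arrays. The 2 past 2-fold were Postn and S100a4, already counted among the TGF-beta responsive genes. Most fibroblast markers, and the smooth muscle markers Acta2, Tagln, Cnn1 and Tpm2, are on that list too, so the lists are not separate readings. All 3 markers of red blood cells passed 2-fold upward in their brightest probe sets, with sums of 7945 on high salt and 3135 on low salt. For Slc4a1 the probe sets did not share this. J04793_at was flat at 168.3 on high salt and 174.8 on low salt, and rc_AA875035_at read 45.2 on high salt and 17.4 on low salt. Of 9 leukocyte markers 3 were higher and 2 lower, with sums of 1367 on high salt and 1587 on low salt, and Cd8a was below 0 on both arrays. Of 6 smooth muscle markers 1 was higher (Tpm2) and 1 lower (Myh11), both under the noise floor on both arrays. The sums were 3339 on high salt and 2348 on low salt. Most of each came from 1 gene, Des, at 2870.1 on high salt and 1961.6 on low salt. Of 4 endothelial markers 1 was higher, with sums of 296.7 on high salt and 262.5 on low salt, and Icam2 was below 0 on both arrays. Of 2 platelet markers 0 passed 2-fold, and Pf4, a platelet chemokine, read 223.6 on high salt and 123.5 on low salt. The part of any of these cells in the readings of Tsc22d1, Pmepa1 and Fstl1 was not tested.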

How the data were processed

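Biotin-labelled, fragmented cRNA was made from total heart RNA, per the labels' protocols. The authors deposited 1 linear intensity per probe set and array, 8799 with 59 controls; the software that made them is not given in the sources used here. Their 2% trimmed means differed by 0.0030%, under the 10% set as a limit, so they were used as deposited.

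Symbols came from the 2016 annotation of the platform (7006 with 1 symbol, 308 with several, 1426 with none). The log2 ratio, high salt over low salt, was computed after raising values to the lower floor or the noise floor. A ratio with 1 raised value is a bound, and with both raised there is none. Suffixes such as _s_at and _f_at mark probe sets that may also match related transcripts. Several list readings come from these, such as those of Dab2, Nbl1 and Tnc. A gene of several probe sets was represented by its brightest, by mean log2 value; in the lists the brightest is that at the lower floor where readings are quoted. "Higher" and "lower" mean 2-fold, with no test, as each diet had 1 array. The ratio and count steps were tested on simulated data, with changes put only into bright probe sets. Those were brighter than the low-salt reading of any of the 6 genes, so the test does not cover their signal range.

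The genes and lists were chosen with earlier results of these data known. Named were all 8 probe sets, list members that reached the noise floor, and up to 4 others of each list with the largest ratios; of these a selection is given, and Smad7, Smad1, Smad3, Smad4, Smad9, Tgfbr1 and Klf10 are outside that rule, chosen after their values were seen for their role. Alternatives were other floors, trimmed mean, median and quantile scaling, 1.5-fold and 3-fold thresholds, other rules for several probe sets, and leaving out Tsc22d1 or probe sets that may share sequence; a floor at the 99th percentile of the size of values below 0 was added after seeing the data. Python 3.11.15, numpy 2.4.6, pandas 2.3.3 and matplotlib 3.10.9 were used.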

Additional observations from a re-analysis of the deposited data

How the results depend on the processing

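The count of 0 probe sets lower by 2-fold or more was the same under all 10 alternatives tried. The count of 6 higher fell to 4 with the noise floor, the floor at the 60th percentile (41.2) and the 3-fold threshold. At the noise floor Tgfb1 and Tgfb2 had no ratio, and at 41.2 their bounds were under 2-fold. The 4 past 3-fold were a different set: Tsc22d1, the brighter Fstl1 probe set and the dim Tgfb1 and Tgfb2. Pmepa1 at 2.91-fold and the other Fstl1 probe set at 2.46-fold fell short. The count of higher probe sets changed by more than 1.5 times under 1 of 10. That was the floor at the 99th percentile of the size of values below 0 (271.2), a choice made after seeing the data, which left 3 probe sets measured, all 3 higher by 2-fold or more. The median log2 ratio of the probe sets was 1.08 with a floor at the 60th percentile of intensities and lay between 1.08 and 1.83 over 12 alternatives. That floor raised the low-salt readings of Tgfb1 and Tgfb2, so both ratios there are lower bounds. At the 99th percentile floor the brighter Fstl1 probe set had a log2 ratio of 1.21, its low-salt reading being raised too. The list medians ran from 0.21 to 0.31 for receptors, Smads and latency proteins, from 0.02 to 0.21 for other ligands and antagonists, and from 0.26 to 0.46 for responsive genes, over 5 alternatives each. No direction among the 8 probe sets reversed. A floor can shrink or remove a ratio but cannot reverse it, so only the scalings could have shown a reversal. No paired analysis was possible because each diet had 1 array. Signal over noise limits what can be said of the ligands: none of their 4 probe sets reached the noise floor on an array.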
